A study of Rattus norvegicus with 3 samples.

Results

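The genes described here are the cytokines and chemokines of the rat and their receptors, in the vestibular nuclei after loss of 1 inner ear. They were taken by symbol: every gene whose symbol began with Ccl, Ccr, Cxcl, Cxcr or Tnf, or with Il and a digit. The symbol was that of the RefSeq accession printed beside each probe. This rule found 98 genes among the 8868 that could be named on the array, out of 170 protein-coding rat genes in the RefSeq table whose symbols meet it. They comprised 15 CC chemokines, 9 CXC chemokines, 13 chemokine receptors, 19 interleukins and their relatives, 22 interleukin receptors and binding proteins, 8 ligands of the tumour necrosis factor (TNF) family, 10 receptors of that family and 2 TNF-induced proteins.

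The animals were Sprague-Dawley males, adult and weighing 200 to 250 g. Labyrinthectomy on the left destroys the inner ear of that side and its input to the brainstem. The groups were the vestibular nuclei of the operated side 1 day after labyrinthectomy, the same nuclei 7 days after it, and the vestibular nuclei of control rats. The control is labelled as sham-operated, whereas the protocol text calls those rats normal, and it is called sham here. The labels name 3 rats for each group, because 1 nucleus gave too little RNA, and each group was hybridised to a single 1-colour Agilent array. There were therefore no replicate arrays, no p-value was computed, and each fold below compares 2 arrays with no measure of the spread between animals. In such pieces of tissue, a change in the number of cells of a type and a change in RNA per cell cannot be told apart.

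Cytokines are secreted signals by which immune cells, glia and vessel cells instruct each other. Chemokines draw cells that carry the matching receptor along a gradient, interleukins switch immune programmes on or off through paired receptor chains, and the TNF family acts through trimeric ligands on receptors that feed into NF-kB or cell death. In the brain, microglia, astrocytes and endothelium make several of them after injury, often from a low resting level, while a few, such as Cxcl12 and Il33, are made in healthy tissue.

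A level is given as the log2 of the scanner's processed intensity minus the log2 of that array's 75th percentile, so that 0 is the 75th percentile and a difference of 1 is 2-fold. A fold is given as such a log2 difference between 2 arrays, except where it is written as N-fold. A gene was called detected where its probe was well above background by the scanner software. The 75th percentile was 5242.1 intensity units at day 1, 5675.8 at day 7 and 5692.2 in sham. The share of spots well above background was 77.3% at day 1, 76.9% at day 7 and 81.3% in sham, and the dimmest such signal was 109.0 units at day 1, 121.6 at day 7 and 66.9 in sham, so the sham array reached further down. The 3 arrays lay on 1 slide and had 1 scan time, but each held its own position, which cannot be told apart from the group. The 4 neuronal markers with a probe were detected on every array. Of the 3 measured, the neurofilament Nefl was lower at day 7, with 1.42 at day 1, 0.09 at day 7 and 1.70 in sham, a fold of −1.61 against sham. Of 3 hindbrain markers, Slc17a6, the vesicular glutamate transporter of brainstem neurons, had 3.03 at day 1, 3.19 at day 7 and 3.01 in sham. The glycine transporter Slc6a5 had 0.33 at day 1, −4.81 at day 7 and 0.45 in sham, and Hoxa2 had 0.58 both at day 1 and in sham but was not well above background at day 7. The day 7 array thus stood apart in 2 of the 3 hindbrain markers and in Nefl, and whether the dissected piece differed at day 7 was not tested.

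Of the 98 cytokine-family genes, 55 were detected at day 1 (56.1%), 61 at day 7 (62.2%) and 61 in sham (62.2%). Over all named genes the share was 74.3% at day 1, 74.2% at day 7 and 78.4% in sham. On all 3 arrays 52 of the 98 were detected (53.1%, against 69.7% of all named genes), and 31 were detected on none (31.6%, against 18.3%). The genes detected on no array included Tnf, Il1a, Il6 and Il10, the best known inflammatory and anti-inflammatory cytokines. Ccl2, the main attractant of monocytes, and Ccl20 were also absent from the detected set, as were Ccl9, Ccl24 and Ccl28. Chemokine receptors were the family least often detected: 8 of the 13 chemokine receptors (Ccr1, Ccr3, Ccr4, Ccr6, Ccr7, Cxcr1, Cxcr2 and Cxcr5) were detected nowhere. Among interleukins the others were Il2, Il7, Il11, Il12a and Il12b. Among the receptors they were Il1rapl1, Il1rl1, Il5ra, Il13ra2 and Il18rap, and in the TNF families Tnfsf10, Tnfsf11, Tnfrsf8 and Tnfrsf19. The 31 undetected genes read a median of −7.77 at day 1, −7.68 at day 7 and −8.47 in sham, so a reading in that range differs between arrays with no signal above background, and no fold is given for them.

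**Figure D1:**
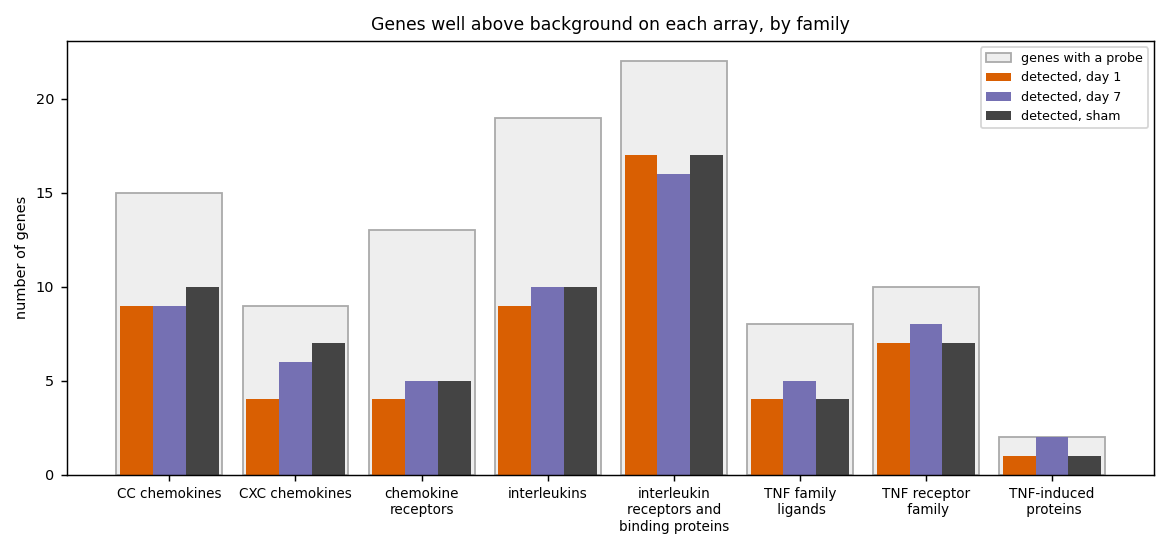
Number of cytokine-family genes well above background on each array (bars: day 1, day 7, sham) within the number that had a probe (grey), by family; the y axis counts genes. Interleukin receptors and binding proteins were detected for 17 of 22 genes at day 1, 16 at day 7 and 17 in sham, and chemokine receptors for 4 of 13 at day 1, 5 at day 7 and 5 in sham.

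Another 15 genes (15.3%, against 12% of all named genes) were detected on some arrays only. Detected at day 7 alone were Cxcl13, Il4, Tnfaip8l2 and Tnfsf15. At day 1 and day 7 but not in sham these were Cxcl2 and Tnfrsf18. At day 7 and in sham but not at day 1 they were Cxcl10, Cxcr4 and Tnfrsf1b, and at day 1 and in sham Il1r2. In sham alone Ccl4, Cxcl1, Cxcl6, Cxcl11 and Il3 were detected. For Ccl4, Cxcl11 and Il3 the sham level (−6.34, −5.77 and −5.93) lay below the dimmest detected signal at day 1 (−5.59) and at day 7 (−5.54), so the other arrays could not have shown that level. The sham levels of Cxcl10 (−6.04), Cxcr4 (−6.24) and Tnfrsf1b (−6.00) lay below both signals as well. Day 1 could not have shown these levels, and at day 7 a detected reading could only be higher. Where a gene was detected on 1 of 2 arrays, the fold is given as a bound: the bright array's level against the dim probe's own reading or the dimmest signal detected on that array, whichever was larger. Where the probe's own reading was the larger, the bound is a plain fold against an undetected reading and not a minimum. That was so for Tnfaip8l2 and Tnfsf15 against sham, and for Cxcl6 at day 7.

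**Figure D2:**
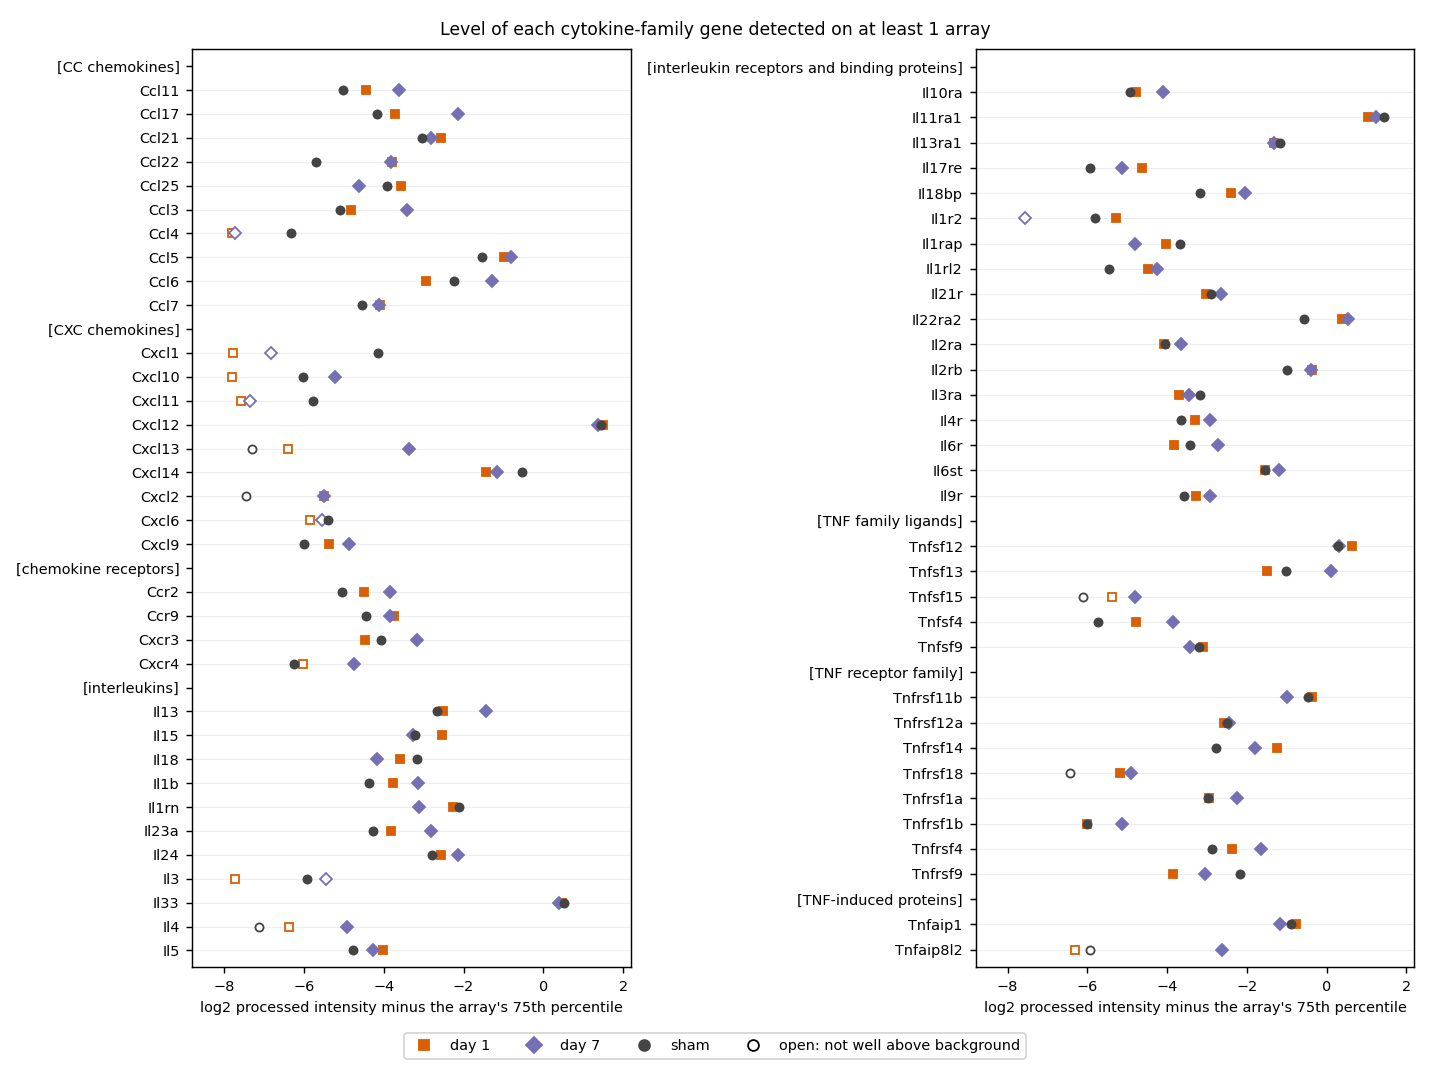
Level of 66 genes detected on at least 1 array, as log2 processed intensity minus the array's 75th percentile, at day 1 (squares), day 7 (diamonds) and in sham (circles); open symbols were not well above background. The day 7 symbols lie furthest right for Ccl17, Ccl3, Cxcl13, Il13 and Tnfaip8l2, and the 3 symbols nearly coincide for Cxcl12 and Il33.

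At day 1 few of these genes stood 2-fold from sham. Of the 53 measured on both arrays, 3 were at least 2-fold higher (5.66%, where 8.27% of all named genes were) and 1 was at least 2-fold lower (1.89%, where 4.37% were), so neither share was above that of the array as a whole. The median log2 fold of the measured genes was 0.26 against 0.00 for all named genes, and 36 of 53 lay above 0 (67.9%, where 50.1% of all named genes did). Among those dimmer than the median named gene 71.8% lay above 0, where 57.9% of all such dim genes did. Ccl22, Tnfrsf14 and Il17re were the higher genes and Tnfrsf9 the lower one. The sham levels of Ccl22 (−5.70) and Il17re (−5.92) lay below the dimmest signal detected at day 1 (−5.59). These 2 genes could therefore be measured only if higher at day 1. The share at least 2-fold higher was 7.69% among the 39 measured genes dimmer than the median named gene, where 12.7% of all such dim genes were higher.

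At day 7 more of these genes were past 2-fold. Of the 55 genes measured on both arrays, 17 were at least 2-fold higher than in sham (30.9%, where 11.1% of all named genes were) and 3 were at least 2-fold lower (5.45%, where 5.74% were). The median log2 fold was 0.71 against 0.05 for all named genes, and 40 of the 55 lay above 0 (72.7%, where 53.3% of all named genes did). A gene with a sham level below the dimmest signal detected at day 7 (−5.54) could be measured only if higher at day 7. Among the higher genes this held for Ccl22 (−5.70), Tnfsf4 (−5.73), Cxcl9 (−6.00) and Cxcr4 (−6.24). The same filter applied to all named genes. Among the 41 genes dimmer than the median named gene the median was 0.79, where all such named genes had 0.28. Of these 41, 80.5% lay above 0, where 63.2% of all such genes did. Among the 14 brighter ones the median was −0.02, where all such genes had −0.06, and 7 lay above 0. The difference in the share at least 2-fold higher was present among the 41 dimmer genes, with 34.1% higher against 18.6% of all such genes, and among the 14 brighter ones, with 3 higher, or 21.4%, against 3.68%. By kind, 10 of 26 measured ligands and 7 of 28 measured receptors or binding proteins were higher. Another 5 of the 98 genes had bounds of at least 2-fold above sham (5.1%, where 2.12% of all named genes had), and 1 had such a bound below it (1.02%, where 1.14% had).

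Set against day 1, day 7 again held more higher than lower genes. Of 54 measured genes, 8 were at least 2-fold higher at day 7 than at day 1 (14.8%, where 6.56% of all named genes were) and 1 was lower (1.85%, where 5.33% were). The median log2 fold was 0.26 against 0.04 for all named genes. Among the 40 dimmer genes 15.0% were higher, where 10.8% of all dim genes were. The comparisons share arrays, day 1 and day 7 against sham the same sham array, so an odd reading on 1 array enters 2 of the 3 folds of a gene.

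**Figure D3:**
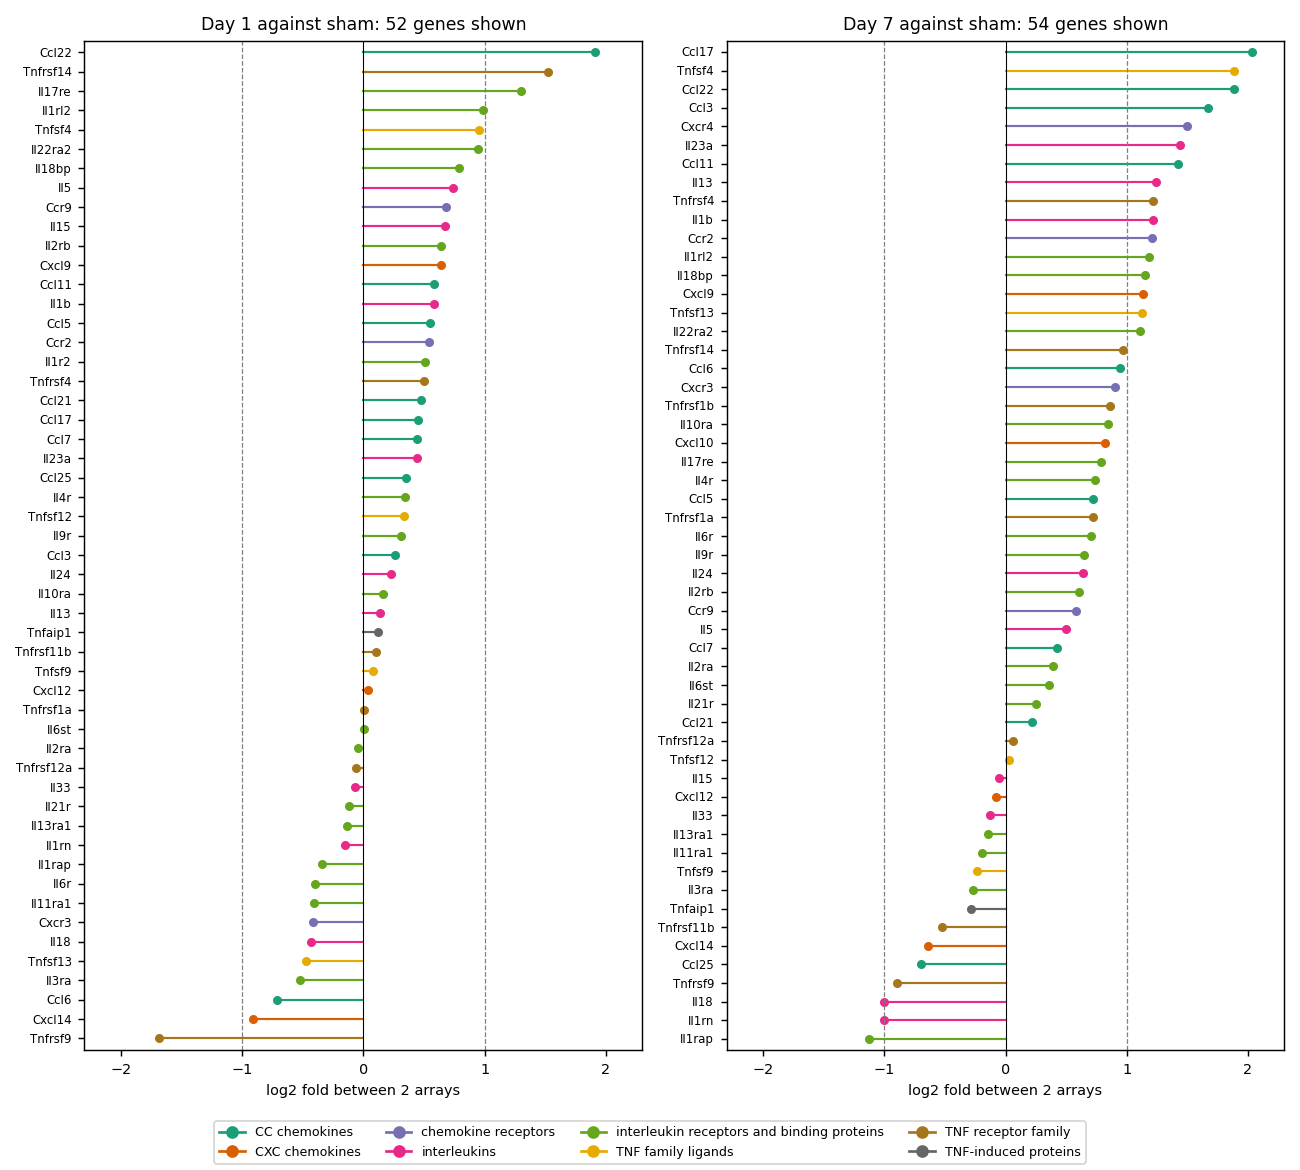
Log2 fold of the measured cytokine-family genes at day 1 against sham (left, 52 genes shown) and at day 7 against sham (right, 54 genes shown), coloured by family; dashed lines mark 2-fold. At day 1, 3 genes lie right of the upper line and 1 left of the lower one; at day 7, 16 lie right of the upper line and 3 left of the lower one or on it.

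Markers of the cells that could carry these genes were read on the same arrays. Beside the counts below, 8.27% of all named genes were at least 2-fold higher at day 1 and 11.1% at day 7. Of 6 microglia and macrophage markers with a probe, 0 of 4 measured were past 2-fold at day 7; their summed level was 1.99 at day 1, 2.71 at day 7 and 2.70 in sham. Aif1, a marker of microglia, was lower at day 1 (−1.13, against −0.05 in sham), and Cx3cr1, the microglial fractalkine receptor, was detected after labyrinthectomy only, with −4.49 at day 1 and −4.80 at day 7, against −7.65 in sham. Of 7 blood leukocyte markers, 4 were measured at day 7 and 1 was higher; their summed level was −1.56 at day 1, −0.98 at day 7 and −1.48 in sham. The granulocyte gene S100a8 was that gene, with −3.35 at day 7 against −4.59 in sham and no detection at day 1, and S100a9 was detected at day 7 alone, at least 5.99-fold above sham. At day 1, 1 of 3 measured leukocyte markers was higher, the T cell gene Cd8a, with −4.04 at day 1 against −5.29 in sham. At day 7 Cd8a was not detected, and its undetected reading lay 2.8-fold below day 1 and 1.18-fold below sham. The T cell receptor chain Cd3g was not detected at day 1, at least 1.42-fold below sham, and had −5.14 at day 7 against −5.08 in sham. Its partner Cd3d had −3.16 at day 1, −2.97 at day 7 and −3.00 in sham. The B cell gene Cd79b had folds of 0.08 at day 1 and 0.29 at day 7, and Cd4 was not detected on any array. Of 4 choroid plexus markers, 2 of 3 measured were higher at day 7, Folr1 by 1.72 and Sostdc1 by 1.86, while Ttr had −0.10, and their summed level was −0.95 at day 1, 0.30 at day 7 and −0.54 in sham. Of 5 astrocyte markers 1 was higher at day 1, S100b by 3.19, and 2 at day 7, S100b by 1.89 and Aqp4 by 1.25. The folds at day 7 were 0.70 for Aldh1l1, −0.26 for Gfap and −0.18 for Slc1a3, and the list had a summed level of 3.02 at day 1, 2.95 at day 7 and 2.94 in sham. Of 2 erythrocyte markers 1 was higher at both times, Alas2 by 1.02 at day 1 and 1.29 at day 7, while Hbb had 0.21 and −0.07. Of the endothelial markers 0 of 3 measured were past 2-fold at day 1 and 0 of 2 at day 7, with day 7 folds of −0.38 for Cldn5 and −0.43 for Flt1. The part of leukocyte, erythrocyte, astrocyte, endothelial and choroid plexus RNA in the day 7 values of the cytokine-family genes was not tested.

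The precision of a single fold was limited. The scanner's own error estimate, which covers spot and background noise and not the animals, was 0.20 to 0.41 on the log2 scale for the measured genes against sham. Spots of the same probe on 1 array differed by a median SD of 0.07 at day 1, 0.08 at day 7 and 0.10 in sham. Different probes of 1 gene differed more. Over 1120 named genes with 2 measured probes, the folds of the 2 probes at day 7 differed by a median of 0.41, and of the 89 genes past 2-fold by the brighter probe 26 were past it by both. A second measured probe existed for 9 cytokine-family genes. At day 7 Ccl22 and Il1b were among those past 2-fold by the brighter probe, and none was by both. The other genes past 2-fold at day 7 were read by 1 measured probe each, and cross-hybridisation between similar chemokine genes was not tested.

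Among the CC chemokines, 4 of 9 measured genes were higher at day 7 (44.4%) and 1 at day 1 (11.1%). Of all named genes 11.1% were higher at day 7 and 8.27% at day 1, and of the dimmer ones 18.6% and 12.7%. Ccl17, which attracts T cells through the receptor Ccr4, had −3.72 at day 1, −2.14 at day 7 and −4.17 in sham. The day 7 level stood above both others, with a log2 fold of 2.03 ± 0.22 (scanner error) against sham and 1.58 against day 1, whereas day 1 lay 0.45 above sham. Ccl22, the other ligand of Ccr4, had −3.79 at day 1, −3.81 at day 7 and −5.70 in sham. Its probe was higher on both arrays of operated rats, by 1.91 ± 0.30 at day 1 and 1.89 ± 0.30 at day 7, but its second probe gave 0.44 at day 1 and −0.02 at day 7. Ccr4 itself was not detected on any array.

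Ccl3, a chemokine of activated macrophages and microglia that binds Ccr1, had −4.83 at day 1, −3.43 at day 7 and −5.09 in sham. It was 1.67 ± 0.25 above sham at day 7 and 0.26 ± 0.31 above it at day 1. Ccl11 (eotaxin), which attracts eosinophils through Ccr3, had −4.45 at day 1, −3.61 at day 7 and −5.04 in sham, with a fold of 1.42 ± 0.26 at day 7 and 0.59 at day 1. Its receptor Ccr3 was not detected. Ccl6, a chemokine of rodent myeloid cells, was lowest at day 1, with −2.95 at day 1, −1.29 at day 7 and −2.23 in sham. It was 1.66 above day 1 at day 7, while its fold of 0.94 against sham fell just short of 2-fold.

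The remaining CC chemokines moved less. Ccl5, an attractant of T cells and monocytes, had −0.99 at day 1, −0.82 at day 7 and −1.54 in sham, with folds of 0.55 at day 1 and 0.72 at day 7. Ccl7 had folds of 0.44 at day 1 and 0.43 at day 7, and Ccl21, a ligand of Ccr7, 0.47 at day 1 and 0.22 at day 7. The second probe of Ccl7 was detected in sham only, with −5.45 there. Ccl25 was the gene lower at day 7 than at day 1, with −3.57 at day 1, −4.62 at day 7 and −3.93 in sham, a fold of −1.05 between the times. Its receptor Ccr9 had folds of 0.68 at day 1 and 0.58 at day 7 against sham.

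The CXC chemokines split by detection more than by fold. Cxcl13, which attracts B cells through Cxcr5, had −6.39 at day 1 and −3.38 at day 7, against −7.30 in sham, and was detected at day 7 alone. It was at least 8.19-fold above sham and at least 4.63-fold above day 1. Cxcr5 was not detected. Cxcl9, an interferon-induced ligand of Cxcr3, had −5.36 at day 1, −4.87 at day 7 and −6.00 in sham, with folds of 0.64 at day 1 and 1.13 ± 0.37 at day 7. Its level was close to the dimmest detected signal on each array. Cxcl10, another Cxcr3 ligand, was not detected at day 1 and had −5.21 at day 7 against −6.04 in sham, a fold of 0.82.

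The neutrophil attractants Cxcl1, Cxcl2 and Cxcl6 went different ways. Cxcl1 had −7.77 at day 1, −6.83 at day 7 and −4.15 in sham and was detected in sham only, which put day 1 at least 2.71-fold and day 7 at least 2.63-fold below sham. Cxcl6, with −5.85 at day 1, −5.54 at day 7 and −5.40 in sham, was at least 1.14-fold below sham at day 1 and 1.10-fold by its undetected reading at day 7. Cxcl2 was detected after labyrinthectomy only, with −5.51 at day 1 and −5.49 at day 7, against −7.45 in sham, at least 1.87-fold higher at day 1 and 1.89-fold at day 7. Cxcr2, their receptor, was not detected. The bright Cxcl12, made by resting brain endothelium and neurons, had 1.49 at day 1, 1.38 at day 7 and 1.46 in sham and differed from sham by 0.04 at day 1 and −0.08 at day 7. Cxcl14 had −1.44 at day 1, −1.16 at day 7 and −0.53 in sham, with folds of −0.91 at day 1 and −0.64 at day 7.

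The promoters of these chemokines are textbook targets of NF-kB, so the 250 bases upstream of each gene's start were searched on both strands for a form of the NF-kB site, namely GGG, any 3 bases and TTCC. A promoter in the RefSeq table (build GRCr8) was found for 71 of the 98 genes, and 13 of the 71 held the letters (18.3%), against 4.53% of 33469 rat promoters. The 71 were counted once per gene, whereas the 33469 were all listed promoters, not limited to genes on the array. The 13 were Ccl6, Ccl7, Ccl9, Ccl20, Ccr3, Cxcl1, Cxcl2, Cxcl6, Cxcl10, Cxcl11, Il1rn, Il6 and Tnfrsf4. Of the 11 genes with a promoter that were at least 2-fold higher at day 7, 1 held it, Tnfrsf4 (9.09%). Of the 40 genes with a promoter that were measured at day 7 against sham, 5 held it (12.5%). The promoters of Cxcl1 (chr14:17479322-17479571, minus strand), Cxcl2 (chr14:17467256-17467505, minus strand) and Cxcl10 (chr14:15988816-15989065, plus strand) hold 3, 2 and 3 matches, and that of Tnfrsf4 (chr5:171888884-171889133, plus strand) 1. They are shown 5′ to 3′ up to the base before the gene's start, because these chemokines are among those with the most matches while their levels differed in direction between the arrays; capitals mark the matches, and overlapping matches run together.
Cxcl1: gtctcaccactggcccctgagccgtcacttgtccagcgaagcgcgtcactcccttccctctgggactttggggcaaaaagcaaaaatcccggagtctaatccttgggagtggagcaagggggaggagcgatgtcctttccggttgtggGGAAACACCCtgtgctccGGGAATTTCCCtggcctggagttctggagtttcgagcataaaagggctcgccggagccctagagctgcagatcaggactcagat
Cxcl2: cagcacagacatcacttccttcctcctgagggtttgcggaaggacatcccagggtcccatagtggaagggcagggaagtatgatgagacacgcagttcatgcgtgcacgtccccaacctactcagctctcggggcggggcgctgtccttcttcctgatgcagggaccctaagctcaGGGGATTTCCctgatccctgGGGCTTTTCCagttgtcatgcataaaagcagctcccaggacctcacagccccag
Cxcl10: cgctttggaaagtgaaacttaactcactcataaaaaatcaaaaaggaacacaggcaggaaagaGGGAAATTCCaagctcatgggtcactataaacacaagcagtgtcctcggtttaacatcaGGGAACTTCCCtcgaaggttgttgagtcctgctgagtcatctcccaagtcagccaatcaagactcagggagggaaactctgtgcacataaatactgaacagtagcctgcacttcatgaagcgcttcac
Tnfrsf4: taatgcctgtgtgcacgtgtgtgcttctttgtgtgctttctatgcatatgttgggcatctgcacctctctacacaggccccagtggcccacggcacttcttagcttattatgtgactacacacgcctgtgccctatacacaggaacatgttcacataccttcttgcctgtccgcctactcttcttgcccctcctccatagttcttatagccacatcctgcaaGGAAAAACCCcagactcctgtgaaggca
The STAT letters TTCNNNGAA were in 7 of the 71 promoters (9.86%, against 7.67% of all), among them Ccl17, the gene with the largest measured fold at day 7. They were in 1 of the 11 higher at day 7 (9.09%) and in 3 of the 40 measured (7.5%), so the higher genes held them about as often as all promoters. The interferon-response letters, GAAA, any 2 bases and GAAA, were in 4 (5.63%, against 3.41%): Cxcl10, Il4, Il6st and Tnfrsf1b. No match of 1 of these motifs overlapped a match of another in the promoters printed here. The promoter of Ccl17 (chr19:10209896-10210145, minus strand) is given with its STAT match in capitals.
Ccl17: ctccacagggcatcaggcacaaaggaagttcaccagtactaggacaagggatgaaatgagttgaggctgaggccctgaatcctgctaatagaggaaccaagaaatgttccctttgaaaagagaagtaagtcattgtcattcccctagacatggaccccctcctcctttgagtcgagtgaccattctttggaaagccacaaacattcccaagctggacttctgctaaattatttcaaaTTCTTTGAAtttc

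Of the chemokine receptors, Cxcr4 and Ccr2 were at least 2-fold higher at day 7 than in sham. Cxcr4, the receptor of Cxcl12, had −6.03 at day 1, where it was not detected, −4.75 at day 7 and −6.24 in sham. Its fold at day 7 was 1.50 ± 0.38 against sham and at least 1.79-fold against day 1, although the sham reading was near the dimmest signal detected there (−6.41). Ccr2, the receptor of monocytes for Ccl2 and Ccl7, had −4.50 at day 1, −3.83 at day 7 and −5.04 in sham, with folds of 0.54 at day 1 and 1.21 ± 0.26 at day 7. Cxcr3, the receptor of Cxcl9 and Cxcl10, had −4.48 at day 1, −3.16 at day 7 and −4.06 in sham, which was 1.32 higher at day 7 than at day 1 and 0.90 higher than sham.

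Among the interleukins, 3 of 9 measured genes were higher at day 7 (33.3%, where 11.1% of all named genes were) and 2 were lower (22.2%, where 5.74% were). None passed 2-fold at day 1. Il1b, the inflammatory interleukin released by activated microglia and macrophages, had −3.78 at day 1, −3.15 at day 7 and −4.37 in sham. The folds were 0.59 at day 1 and 1.22 ± 0.23 at day 7. Its probe was printed 10 times on each array, with an SD between spots of 0.11 at day 1, 0.04 at day 7 and 0.27 in sham, which covers noise within an array and not the difference between samples. The second probe of Il1b gave 1.35 at day 1 and 0.93 at day 7. Its sham level (−5.75) lay below the dimmest signal detected at day 1 (−5.59) and at day 7 (−5.54). Once detected there, the second probe could only read above sham. Il13, a type-2 cytokine of T cells and mast cells, had −2.53 at day 1, −1.43 at day 7 and −2.66 in sham, a fold of 1.24 ± 0.21 against sham and 1.10 against day 1. Il4, its close relative, was detected at day 7 alone, with −6.37 at day 1 and −4.93 at day 7, against −7.14 in sham, at least 2.79-fold above it. Il23a, the specific subunit of the interleukin that maintains T helper cells of the Il17 type, had −3.83 at day 1, −2.83 at day 7 and −4.27 in sham, with folds of 0.44 at day 1 and 1.44 ± 0.23 at day 7.

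The lower interleukins belonged to the Il1 family. Il1rn, the secreted antagonist of Il1, had −2.27 at day 1, −3.12 at day 7 and −2.12 in sham. Il18, which activates natural killer and T cells, had −3.59 at day 1, −4.16 at day 7 and −3.16 in sham. The fold of Il1rn was −0.15 at day 1 and −1.005 ± 0.21 at day 7, and that of Il18 was −0.43 at day 1 and −1.002 ± 0.24 at day 7, so both lay on the 2-fold line at day 7. The second probe of Il1rn was not detected. Il33, the alarmin stored in nuclei of glia, had 0.45 at day 1, 0.39 at day 7 and 0.52 in sham and differed from sham by −0.07 at day 1 and −0.13 at day 7. Il15 had folds of 0.67 at day 1 and −0.06 at day 7, Il24 of 0.23 at day 1 and 0.64 at day 7, and Il5 of 0.74 at day 1 and 0.50 at day 7.

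The receptors of the Il1 family showed both directions. Il1rap, the accessory chain needed by the receptors of Il1, Il33 and the Il36 cytokines, had −4.03 at day 1, −4.81 at day 7 and −3.69 in sham and was lower at day 7 by a fold of −1.13 ± 0.29, against −0.34 at day 1. Il1r2, the decoy receptor of Il1, had −5.29 at day 1 and −5.80 in sham and was not detected at day 7, at least 1.19-fold below day 1. Il1rl2, the receptor of the Il36 cytokines, had −4.47 at day 1, −4.27 at day 7 and −5.45 in sham, with folds of 0.98 at day 1 and 1.19 ± 0.30 at day 7. Il18bp, a secreted inhibitor of Il18, had −2.40 at day 1, −2.04 at day 7 and −3.18 in sham, with folds of 0.79 at day 1 and 1.15 ± 0.21 at day 7. Thus at day 7 Il1b and Il18bp were higher while Il1rn, Il1rap and Il18 were lower. Il1rl2 and Il18bp, with Ccl7, Ccr9, Il5, Il24, Tnfsf9 and Tnfrsf12a, fall outside the rule for naming genes and were chosen after their values had been seen.

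Other binding proteins and receptors mostly stayed within 2-fold. Il22ra2, a soluble decoy of Il22, was a bright probe with 0.38 at day 1, 0.54 at day 7 and −0.57 in sham, so that day 1 stood 0.95 and day 7 1.11 ± 0.20 above sham. Its second probe was not detected. Il17re, a receptor of epithelial Il17 cytokines, had −4.62 at day 1, −5.14 at day 7 and −5.92 in sham, with folds of 1.30 ± 0.36 at day 1 and 0.79 at day 7, the difference between the times being −0.52. Il6r, the receptor chain that binds Il6, had −3.84 at day 1, −2.73 at day 7 and −3.44 in sham, which was 1.11 higher at day 7 than at day 1 and 0.71 higher than sham. Its signalling partner Il6st had −1.54 at day 1, −1.19 at day 7 and −1.54 in sham, a fold of 0.36 at day 7. Il4r, shared by Il4 and Il13, had folds of 0.34 at day 1 and 0.73 at day 7, and Il13ra1 of −0.14 at both times. The second probe of Il13ra1 disagreed at day 1, with 1.31, and gave −0.08 at day 7. The folds of Il10ra were 0.16 at day 1 and 0.84 at day 7, those of Il2rb 0.64 at day 1 and 0.61 at day 7, and those of Il11ra1 −0.40 at day 1 and −0.19 at day 7. In all, 3 of 16 measured interleukin receptors and binding proteins were higher at day 7 (18.8%) and 1 was lower (6.25%). Of all named genes 11.1% were higher and 5.74% lower, and of the dimmer ones 18.6% were higher.

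In the TNF family, a ligand and its receptor were both higher at day 7. Tnfsf4 (OX40 ligand), a co-stimulator carried by antigen-presenting cells, had −4.78 at day 1, −3.84 at day 7 and −5.73 in sham. Tnfrsf4 (OX40), its receptor on activated T cells, had −2.37 at day 1, −1.65 at day 7 and −2.87 in sham. The order of the arrays was the same in both genes, with day 7 highest and sham lowest. For Tnfsf4 the sham level lay below the dimmest signal detected at day 1 (−5.59) and at day 7 (−5.54). Once Tnfsf4 was detected on both of those arrays, sham could only read lowest. The folds of Tnfsf4 were 0.95 at day 1 and 1.89 ± 0.30 at day 7, and those of Tnfrsf4 0.50 at day 1 and 1.22 ± 0.21 at day 7. Both rest on the same sham array.

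Tnfsf13 (APRIL), a survival factor of B cells and plasma cells, had −1.49 at day 1, 0.11 at day 7 and −1.02 in sham, with a fold of 1.12 ± 0.20 at day 7 against sham, 1.60 against day 1 and −0.47 at day 1. Tnfsf15 was detected at day 7 alone, with −5.38 at day 1 and −4.80 at day 7, against −6.10 in sham, 2.46-fold above its undetected sham reading. Tnfsf12 (TWEAK) had 0.62 at day 1, 0.32 at day 7 and 0.29 in sham, with folds of 0.33 at day 1 and 0.03 at day 7, and its receptor Tnfrsf12a had folds of −0.06 at day 1 and 0.07 at day 7. Tnfsf9 had folds of 0.08 at day 1 and −0.23 at day 7. Tnfrsf9, the receptor of Tnfsf9 on activated T cells, was the gene lower at day 1, with −3.85 at day 1, −3.06 at day 7 and −2.16 in sham and folds of −1.68 ± 0.22 at day 1 and −0.90 at day 7.

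Tnfrsf14 (HVEM), a receptor shared by lymphocyte co-signalling ligands, had −1.25 at day 1, −1.81 at day 7 and −2.77 in sham. It was 1.52 ± 0.21 above sham at day 1, where its second probe gave 1.40, and 0.97 at day 7, where the second probe gave 0.29. It was the 1 cytokine-family gene past 2-fold against sham by both probes. Tnfrsf18 (GITR), carried by regulatory T cells, was detected on both arrays of operated rats, with −5.17 at day 1 and −4.91 at day 7, against −6.44 in sham, at least 2.36-fold higher at day 1 and 2.83-fold at day 7. The receptors of TNF itself moved less, Tnfrsf1a with folds of 0.01 at day 1 and 0.72 at day 7, and Tnfrsf1b with −5.14 at day 7 against −6.00 in sham, a fold of 0.86. Tnfrsf11b, the soluble decoy osteoprotegerin, had folds of 0.11 at day 1 and −0.53 at day 7. Tnfaip8l2, which restrains T cell and Toll-like receptor signalling, had the largest bound, with −6.30 at day 1, −2.61 at day 7 and −5.93 in sham. It was 10.0-fold above its undetected sham reading, with a scanner error of 0.36 on the log2 scale, and at least 7.88-fold above day 1. Tnfaip1 had folds of 0.12 at day 1 and −0.28 at day 7. The second probe of Tnfaip1 gave −0.52 at day 1 and −0.54 at day 7.

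Genes that carry these signals inside the cell, or that encode cytokines under other symbols, were read from lists. Beside the counts below, 8.27% of all named genes were higher at day 1 and 11.1% at day 7, while 4.37% and 5.74% were lower. Of the NF-kB and adaptor genes 11 of 35 had a named probe; 0 of 7 measured were past 2-fold at day 7, and at day 1 Birc3, an NF-kB target that inhibits cell death, was higher (1 of 5 measured), with −2.11 against −4.57 in sham. Myd88 and Fadd, adaptors of Il1 and death receptors, were detected at day 7 only, at least 1.97-fold and 2.53-fold above sham. Other genes of this list went the other way. Irak2 was detected in sham only, which put day 1 at least 1.65-fold and day 7 at least 1.61-fold below it. Nfkbie was at least 1.42-fold below sham at day 7 and Nfkbib at least 1.12-fold at day 1. Of the measured genes, 2 of 5 lay above 0 at day 1 and 5 of 7 at day 7. Of the Jak, Stat and Socs genes 16 of 25 had a probe. At day 7, 3 of 13 measured were higher, namely Socs3, the feedback inhibitor of Il6-type signalling (−3.68 against −5.16 in sham), Jak2 with a fold of 1.25 and Stat4 with 1.16. The sham level of Stat4 (−5.71) lay below the dimmest signal detected at day 7, so Stat4 could be measured only if higher. Stat5b was lower at both times, by −1.50 at day 1 and −1.26 at day 7, the 1 lower gene of 13 measured in each comparison, and Socs2 was detected in sham only, which put day 1 at least 2.27-fold and day 7 at least 2.2-fold below it. Stat3 had folds of 0.01 at day 1 and −0.37 at day 7. Of the cytokine genes with other symbols 34 of 47 had a probe, and 3 of 19 measured were higher at day 7 (15.8%). Ifngr1, a chain of the interferon-gamma receptor, had −5.62 at day 1, where it was not detected, −1.004 at day 7 and −4.80 in sham, a fold of 3.80. Osm, of the Il6 family, and its receptor Osmr were not detected at day 1 and stood above sham at day 7, Osm by 2.28 and Osmr by 1.88. Their sham levels (−5.95 and −6.17) lay below the dimmest signal detected at day 1 and at day 7. Day 1 could not have shown these levels, and at day 7 a detected reading could only be higher. At day 1, 0 of 17 measured were higher and Tgfbr1 was lower with a fold of −1.12. Of these 17, 2 lay above 0 (11.8%) with a median of −0.26, where 67.9% of the cytokine-family genes did with a median of 0.26. At day 7, 10 of 19 lay above 0 (52.6%) with a median of 0.045, where 72.7% of the cytokine-family genes did with 0.71. The upward lean of the cytokine-family genes was thus not seen in this list.

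The share of higher genes at day 7 was set beside that of all named genes under other ways of scaling, filtering and choosing probes. In each of them the cytokine-family share was the larger at day 7 against sham, and at day 1 it was the smaller. All except the setting without a filter on dim probes still required detection on both arrays. Without that filter, undetected readings entered, and these lay higher at day 7 than in sham.

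**Figure D4:**
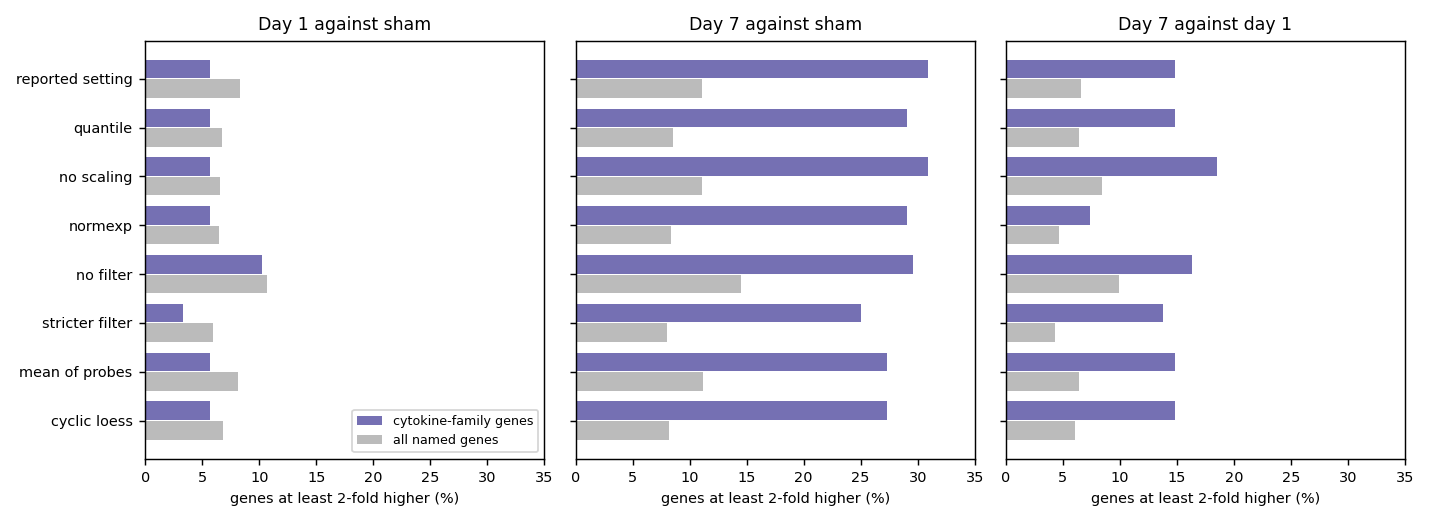
Share of measured genes at least 2-fold higher (x axis, percent) among the cytokine-family genes (purple) and all named genes (grey) under the reported setting and 7 other ways of processing, for each comparison. At day 7 against sham the purple bar runs from 25.0% to 30.9% and the grey bar from 8.03% to 14.5%; at day 1 against sham they run from 3.33% to 10.2% and from 5.95% to 10.7%.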

How the data were processed

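Total RNA (1 µg) of vestibular nuclei was labelled with Cy3, per the labels' protocols, and read on 1-colour arrays. The deposited scanner files hold the processed intensity of each spot, background-subtracted and unscaled between arrays, made with Agilent Feature Extraction 10.7.3.1 per the file headers. Values of the authors' deposited table matched those intensities; their medians over the probes used were 1552.1, 1699.2 and 1612.2 at day 1, day 7 and in sham.

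From these, the log2 intensity minus that of the array's 75th percentile was computed. Control spots and spots with outlier flags were left out and spots of a probe averaged; saturated spots stayed but gave no fold. The 41012 probes were named by matching accessions to RefSeq genes, which named 10768. A gene was read from its brightest usable probe. Of 115 probes of the 98 genes, 1 was left out for a flag. A gene counted as measured where both arrays read it above background by the software's flag and below saturation, and differences of at least 2-fold were counted. The code that counts folds was run on simulated data with planted folds well past 2-fold and little noise. That run checks the code and not the reliability of the counts. Python 3.11.15, numpy 2.4.6, pandas 2.3.3, R 4.3.3 and limma 3.58.1 were used.

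Genes named were up to the 10 highest and 10 lowest past 2-fold, the 5 largest bounds each way, the 10 brightest probes, genes whose probes disagreed and a preset list of 45 (37 with a probe). The members and lists were chosen with earlier results of these data known. Alternatives were quantile, cyclic loess and no scaling, normexp with an offset of 50 on the median signal (the planned mean signal was not used here), no or a stricter filter on dim probes, and the mean of a gene's probes. With 1 array per group, precision was limited by the number of arrays, and the labels name 3 rats per array. Some genes are not reported individually here, and 1 is left out of the plots of levels and folds.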

Additional observations from a re-analysis of the deposited data

How the results depend on the processing

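No paired analysis was possible because each group had 1 array, and slide could not be fitted as a block because all arrays lay on 1 slide. No median and no gene past 2-fold changed direction under the 7 other settings. Among all measured cytokine-family genes the sign of the fold changed in at least 1 setting for 10 of 53 at day 1 (among them Cxcl12, Tnfrsf1a and Il6st, all with folds of at most 0.16 in size), for 1 of 55 at day 7 (Tnfrsf12a, 0.07) and for 9 of 54 between the times (at most 0.12 in size). The largest such value was that of Il13ra1 at day 1, 0.59 by the mean of its probes against −0.14. At day 7 against sham the share of higher genes stayed above that of all named genes in each setting. The count of higher genes was 29 without a filter on dim probes and 9 with the stricter filter, against 17; the lower count was 7, 1 and, with normexp, 1, against 3. The median was 0.58 with quantile scaling, 0.59 with normexp and 0.50 with cyclic loess (chosen after seeing the data), against 0.71. At day 1 the higher count was 10 without a filter and 1 with the stricter one, and the lower count 6 and 0, and 2 without scaling. The day 1 median was 0.12 with quantile scaling, 0.14 without scaling, 0.52 without a filter, 0.11 with the stricter filter and 0.12 with cyclic loess, against 0.26. For day 7 against day 1 the higher count was 16 without a filter, 4 with the stricter filter and 4 with normexp, and the lower count 3, 0 and 0, and 0 without scaling. Without scaling the median of all named genes was −0.12 at day 1 and 0.15 for day 7 against day 1. The filter settings change how many genes are counted; the cause of the other differences was not tested. All 4 genes past 2-fold at day 1 stayed past it wherever a setting gave a value, and 13 of 20 at day 7 and 4 of 9 for day 7 against day 1 did. At day 7 those that dropped under 2-fold included Ccl22 (0.93) by the mean of probes, Cxcl9 with quantile scaling (0.95), normexp (0.77) and cyclic loess (0.77), Cxcr4 (0.99), Il18 (−0.79) and Il1rap (−0.93) with normexp, and Il1rl2 with normexp (0.90) and cyclic loess (0.94). Bounds not set by a probe's own reading depend on the dimmest detected signal, which was lowest in sham.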
